A study of Mus musculus with 9 samples.

Results

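Heme is built from glycine and succinyl-CoA by a chain of enzymes that starts in the mitochondrion, passes through the cytosol and ends in the mitochondrion again. The first enzyme, 5-aminolevulinate synthase, sets the pace of the pathway and has a housekeeping form, *Alas1*, and an erythroid form, *Alas2*. In myeloid cells heme is the cofactor of myeloperoxidase, of the NADPH oxidase cytochrome and of the respiratory chain. The genes described here are *Alas1*, *Alas2*, *Alad*, *Uros*, *Urod*, *Cpox*, *Ppox* and *Fech*, chosen by symbol, by their place in the pathway, with earlier results of these data known. All 8 were among the 54347 genes of the count table, and 7 of them were among the 13082 genes with enough counts to be tested.

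The data are poly-A RNA-seq counts of 3 mouse myeloid cell lines, with 3 libraries per line. The Hox-WT and Hox-URE progenitors derive from c-Kit+ bone marrow cells given a Hoxb8-ER fusion, which keeps cells immature while estradiol is present. Hox-WT carries wild-type alleles, Hox-URE is UREd/d, that is, both alleles of *Spi1*, which encodes the transcription factor PU.1, lack an upstream regulatory element (URE) that acts as an enhancer, and URE-AML is a blast-like UREd/d leukemia line. Per the labels, all 3 lines grew in medium with 20% serum, IL-3, IL-6 and SCF at 10 ng/ml and 1 µM estradiol. The study's methods give another estradiol dose for all 3 lines. Each genotype and stage is 1 line, so genotype, leukemia, the Hoxb8-ER construct and the history of a line cannot be told apart between URE-AML and Hox-WT. Between URE-AML and Hox-URE, which share the genotype, the same holds for the other 3, and between the Hox lines for genotype and line history. Whether a line was cultured separately for each library is not in the labels, and p-values measure only the spread between these libraries.

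Total counts were 20331064 to 28588718 per library, and 3 counts, taken as the detection floor, equalled 0.104 to 0.153 CPM (a count scaled by library total and TMM factor). This floor covers counting error only. *Spi1* stood at 102 CPM in Hox-WT, 0.0259 CPM in Hox-URE and 4.79 CPM in URE-AML (means, n = 3), and *Hoxb8* at 65.8, 132 and 0 CPM, in the direction the labels give. The Hox-URE value of *Spi1* rests on 0 to 1 counts per library and lies below the floor. Libraries of 1 line differed in marker genes, and the library numbered 1 had the lowest summed CPM of its line for 6 mast cell and basophil and for 6 neutrophil markers in all 3 lines. The mast cell sums were 483, 687 and 838 CPM in Hox-WT libraries 1, 2 and 3, 1610, 3520 and 5890 CPM in Hox-URE and 31.4, 39.2 and 62.7 CPM in URE-AML, with no clear gap after library 1. The neutrophil sums were 6140, 9290 and 9310 CPM in Hox-WT and 3350, 4490 and 4580 CPM in Hox-URE, where library 1 stood apart. In URE-AML they were 7780, 12700 and 17800 CPM. The enzymes' results are therefore also given without the 3 libraries numbered 1 where that gained or lost a call.

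*Alas1* differed most among the enzymes, and in opposite directions in the UREd/d lines. Hox-WT libraries held 107, 125 and 111 CPM of *Alas1*. Hox-URE libraries held 45.6, 48.3 and 58.9 CPM. URE-AML libraries held 189, 408 and 449 CPM. The libraries of the 3 lines did not overlap, and even the lowest URE-AML library lay above every Hox library. Means were 114 ± 9.4 CPM in Hox-WT, 50.9 ± 7 CPM in Hox-URE and 349 ± 140 CPM in URE-AML (SD, n = 3).

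Hox-URE had 2.24-fold less *Alas1* RNA than Hox-WT (log2 fold change -1.16 ± 0.27, SE; adjusted p = 0.00421, edgeR quasi-likelihood F test with Benjamini-Hochberg adjustment over all genes tested). URE-AML had 3.06-fold more than Hox-WT (log2 fold change 1.61 ± 0.27; edgeR adjusted p = 0.000461). Against Hox-URE the difference was 6.85-fold (2.78 ± 0.28 on the log2 scale; edgeR adjusted p = 1.56e-05). These calls held under each of the 20 other settings tried. In bulk RNA a level cannot be divided into the number of cells that express a gene and the RNA per cell.

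The spread of *Alas1* within URE-AML was wide, with the highest library 2.37 times the lowest and a coefficient of variation of 40.1%, against 8.24% in Hox-WT and 13.7% in Hox-URE. The low library was number 1, which also had the lowest summed neutrophil markers of its line. Across lines, summed CPM of the 6 neutrophil markers (*Mpo*, *Elane*, *Prtn3*, *Ctsg*, *Ms4a3* and *Cebpe*) ranged over 6140 to 9310 for Hox-WT, 3350 to 4580 for Hox-URE and 7780 to 17800 for URE-AML, and none was at 0 in every library of a line. *Elane*, neutrophil elastase, made up 4290, 7120 and 10500 CPM of the URE-AML sums. Without it the sums ranged over 6030 to 9120 for Hox-WT, 3340 to 4570 for Hox-URE and 3490 to 7290 for URE-AML, and the order of the lines changed. Relative to Hox-WT, 4 of these markers were lower and 0 higher in Hox-URE, and 4 were higher and 2 lower in URE-AML. That is 66.7% and 100% of the 6 markers, beside 37.2% and 43.2% of all genes tested. Of the 6, *Elane*, *Prtn3* and *Cebpe* had their calls in the directions of *Alas1* in all 3 comparisons, and *Mpo*, *Ctsg* and *Ms4a3* did not. Other marker lists also differed between the lines. Mast cell and basophil markers, with the sums above, had 4 of 5 tested members higher in Hox-URE, and 1 higher and 3 lower in URE-AML, than Hox-WT held. Summed monocyte markers ranged over 286 to 298 CPM in Hox-WT, 2.07 to 8.07 CPM in Hox-URE and 4.33 to 16.3 CPM in URE-AML. *Adgre1* made up 274 CPM (mean) of the Hox-WT sum. In the same order of lines, summed progenitor markers ranged over 1740 to 1990, 821 to 1310 and 257 to 293 CPM. Of these, *Cd34* had means of 1430, 926 and 0.0135 CPM, the last below the floor. *Kit* had 175, 43 and 96.9 CPM and *Myb* 299, 167 and 177 CPM, both lowest in Hox-URE. The part of these cell type markers in the *Alas1* result was not tested.

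*Alas1* (ENSMUSG00000032786) lies on the minus strand at chr9:106233455-106248654 of GRCm38, and its principal transcript has 11 exons and 3399 nt. An antisense gene, 4930500F10Rik, overlaps it and held at most 2 counts in any library. The 717 tested genes of chromosome 9 had a median log2 fold change of 0.02, -0.01 and -0.05 when Hox-URE was set against Hox-WT, and URE-AML against Hox-WT and then Hox-URE.

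The erythroid form was all but absent. *Alas2* (ENSMUSG00000025270, plus strand, chrX:150547375-150570638) had 0 counts in all 6 Hox libraries, and 2, 2 and 5 counts in URE-AML libraries 1, 2 and 3. In 2 of the 3 URE-AML libraries it was under the floor of 3 counts, so no fold is given, and a level below the floor in the Hox lines was not detectable at this depth. It did not pass the filter on low counts. With no such filter it was called higher in URE-AML than in Hox-WT (edgeR adjusted p = 0.0347) and Hox-URE (edgeR adjusted p = 0.0445), on the 9 counts above. Of the erythroid factors, some were low and others abundant. *Gata1* stood at 1.27 CPM in Hox-WT and at 0.101 CPM in Hox-URE, with 0.982 CPM in URE-AML, and *Klf1* at 0.453, 0.281 and 0.354 CPM. In the same order of lines, *Tal1* stood at 151, 259 and 93.6 CPM, *Nfe2* at 188, 362 and 261 CPM and *Zfpm1*, the partner of GATA factors, at 71.7, 111 and 3.29 CPM. These 3 are also expressed in megakaryocyte or mast cell lineages, and for each the call against Hox-WT was higher in Hox-URE, which *Zfpm1* lost without Hox-URE library 2 (0.58) or 3 (0.50). The β-globin gene *Hbb-bt* had 83, 321 and 448 counts in Hox-WT, 0 in Hox-URE and 19, 10 and 77 in URE-AML. The other listed β-globin gene, *Hbb-bs*, was highest in URE-AML. It had 2, 0 and 29 counts in Hox-WT, 0 in Hox-URE and 31, 19 and 132 in URE-AML. *Hba-a2*, an α-globin gene, had 0 counts in both Hox lines and 39, 41 and 125 in URE-AML. The α-globin gene *Hba-a1* had 0 counts in Hox-WT, 0, 7 and 23 in Hox-URE and 25, 8 and 174 in the URE-AML libraries, with the most in library 3, which also held the 5 counts of *Alas2*. Of 16 erythroid markers 15 were in the table and 11 were tested, of which, against Hox-WT, 3 were higher and 3 lower in Hox-URE, and 2 higher and 5 lower in URE-AML (54.5% and 63.6% called, beside 37.2% and 43.2% of all genes tested). Their summed CPM ranged over 1420 to 1520 for Hox-WT, 962 to 1510 for Hox-URE and 337 to 393 for URE-AML, and 6, 5 and 0 of them were at 0 in every library of the line. *Car2*, a carbonic anhydrase also found outside erythroid cells, made up 1030 CPM of this sum in Hox-WT, 518 CPM in Hox-URE and 0.664 CPM in URE-AML.

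Short stretches upstream of annotated start sites of the first enzymes show which known words lie there. They are shown for *Alas1* and *Alas2*, whose levels were so unlike, and for *Alad*, which was highest in Hox-URE. Capitals mark the word, each is read along the strand of the gene, and positions are GRCm38.p6 from RefSeq start sites. The words were searched on both strands in the 250 bases before each start site, and 7 of the 8 genes had such a window (10 windows in all).
Alas1, NRF1 word: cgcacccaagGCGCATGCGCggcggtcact
Alas2, GATA word: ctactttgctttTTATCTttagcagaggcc
Alad, E-box of the upstream start site: gctccgaatgccCACGTGgaccccctcggg
Alad, E-box of the downstream start site: ccgccccgccccCACGTGggcttgcgcttt

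The *Alas1* stretch lies at chr9:106247906-106247935 and overlaps an annotated exon, inside the gene. The capitals start 195 bases before the second start site and lie after the first, whose own window held no such word. The word in capitals, the form searched, which is read by the nuclear respiratory factor NRF1, was in 0.782% of the 32851 windows of all genes. The *Alas2* stretch lies at chrX:150547319-150547348 and holds a GATA word. GATA words (AGATAA and AGATAG, or with TGATAA and TGATAG for the other first letter) were in 26.5% of all windows. The *Alad* stretches lie at chr4:62520151-62520180 and chr4:62519920-62519949, and each holds CACGTG, which was in 6.02% of windows. *Uros* and *Urod* windows also held CACGTG, *Uros* and *Cpox* windows held GATA words, and the *Ppox* window held none of these words. The RUNX word TGTGGT, in 14% of all windows, was found in the *Urod* window, and the GC-box word GGGCGG, in 32.7%, in windows of *Alas1*, *Alas2*, *Alad*, *Uros* and *Urod*. A word in a window is a description and not a binding site.

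**Figure D1:**
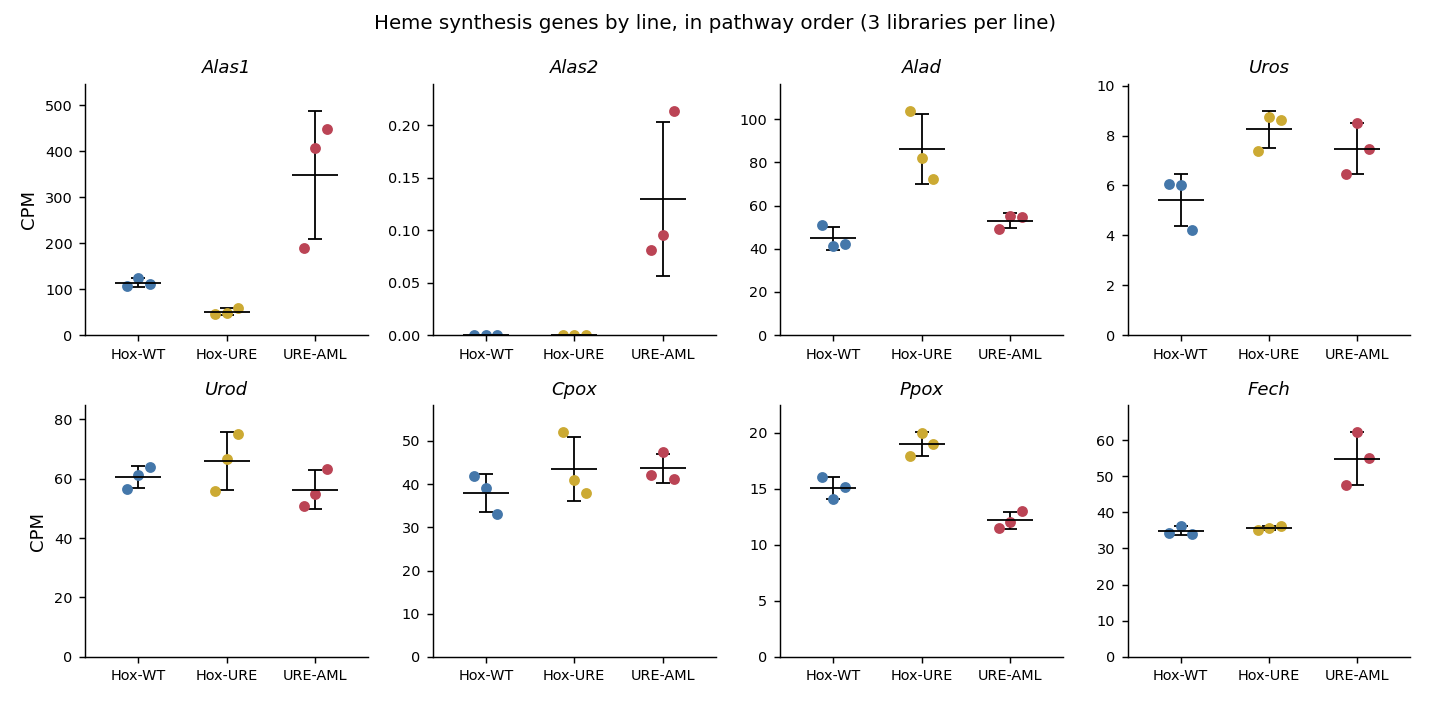
CPM (y axis, from 0) of the heme synthesis genes in the 3 libraries of each line (points, in the order 1, 2, 3), with the mean (line) and SD (bars). *Alas1* is lowest in Hox-URE and highest in URE-AML, *Alad* is highest in Hox-URE and *Fech* in URE-AML, while *Alas2* stays under 0.25 CPM.

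*Alad* and *Uros* were higher in Hox-URE. *Alad* makes porphobilinogen from the product of the first enzyme. Its levels were 50.9, 41.2 and 42.4 CPM in Hox-WT, 104, 81.9 and 72.3 CPM in Hox-URE, and 49.1, 55.3 and 54.7 CPM in URE-AML. Every Hox-URE library lay above every library of the other lines, and Hox-WT and URE-AML overlapped. Hox-URE exceeded Hox-WT in *Alad* by 1.92-fold (log2 fold change 0.94 ± 0.14, edgeR adjusted p = 0.000334) and URE-AML was lower than Hox-URE by 1.62-fold (-0.70 ± 0.14, edgeR adjusted p = 0.00173). The latter call was lost without Hox-URE library 1, the highest of its line (log2 fold change -0.54), and without the 3 libraries numbered 1 (-0.49). URE-AML and Hox-WT differed by 0.24 on the log2 scale (95% interval -0.07 to 0.56, edgeR adjusted p = 0.169).

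*Uros*, which closes the chain into a ring, was the lowest of the tested members, with 122 to 211 counts per library. Its levels were 6.07, 6 and 4.22 CPM in Hox-WT, 7.39, 8.74 and 8.63 CPM in Hox-URE, and 6.46, 8.51 and 7.46 CPM in URE-AML. Hox-WT lay below both other lines. Hox-URE exceeded Hox-WT by 1.52-fold (log2 fold change 0.60 ± 0.19, edgeR adjusted p = 0.0224), just over the threshold, and the call was lost in 6 of the 20 other settings, in 3 of which 1 library was left out: Hox-WT library 3 (0.44), Hox-URE library 2 or Hox-URE library 3. URE-AML differed from Hox-WT by 0.46 ± 0.19 on the log2 scale and was not called (edgeR adjusted p = 0.0624), but was called without the 3 libraries numbered 1 (0.64, edgeR adjusted p = 0.0352). *Bccip*, on the opposite strand, overlaps *Uros* and stood at 130 to 137 CPM on average. The strand setting of the authors' counting is not given in the sources used here, and *Bccip* differed by at most 0.08 on the log2 scale in any comparison.

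*Urod* and *Cpox*, the next enzymes, passed no test. *Urod* stood at 60.5 ± 3.58, 65.9 ± 9.73 and 56.4 ± 6.41 CPM in the Hox-WT, the Hox-URE and the URE-AML line, and *Cpox* at 38 ± 4.4, 43.6 ± 7.44 and 43.7 ± 3.34 CPM. The libraries of all lines overlapped for both. The 95% intervals of the log2 differences reached from -0.51 to 0.40 for *Urod* and from -0.31 to 0.51 for *Cpox* over the 3 comparisons, so differences of 1.5-fold lay outside them.

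*Ppox*, which oxidizes protoporphyrinogen, followed the reverse order to *Alas1*. Its levels were 16, 14.1 and 15.1 CPM in Hox-WT, 17.9, 20 and 19 CPM in Hox-URE, and 11.5, 12 and 13 CPM in URE-AML, and the lines did not overlap. URE-AML was lower than Hox-URE by 1.56-fold (log2 fold change -0.64 ± 0.11, edgeR adjusted p = 0.000687). The differences from Hox-WT were 1.26-fold in Hox-URE (0.33 ± 0.11, edgeR adjusted p = 0.0267) and 1.24-fold in URE-AML (-0.30 ± 0.11, edgeR adjusted p = 0.0383), both under the fold threshold. *B4galt3*, which overlaps *Ppox* on the opposite strand, stood at 16.9, 19.4 and 25.2 CPM and was not called in any comparison. In URE-AML it exceeded Hox-WT by 1.49-fold (0.58 ± 0.19, edgeR adjusted p = 0.0225), just under the fold threshold.

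*Fech*, on chromosome 18, inserts iron into protoporphyrin and ends the pathway. Its levels were 34.4, 36.3 and 33.9 CPM in Hox-WT, 35, 35.6 and 36.2 CPM in Hox-URE, and 47.5, 62.1 and 54.9 CPM in URE-AML. Every URE-AML library lay above every Hox library, and the Hox lines overlapped. *Fech* was higher in URE-AML by 1.57-fold against Hox-WT (log2 fold change 0.65 ± 0.11, edgeR adjusted p = 0.000432) and by 1.54-fold against Hox-URE (0.62 ± 0.11, edgeR adjusted p = 0.000619). Without URE-AML library 2, the highest, both fell under the fold threshold (0.56 and 0.53). The Hox lines differed by 0.03 (95% interval -0.21 to 0.27, edgeR adjusted p = 0.84).

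**Figure D2:**
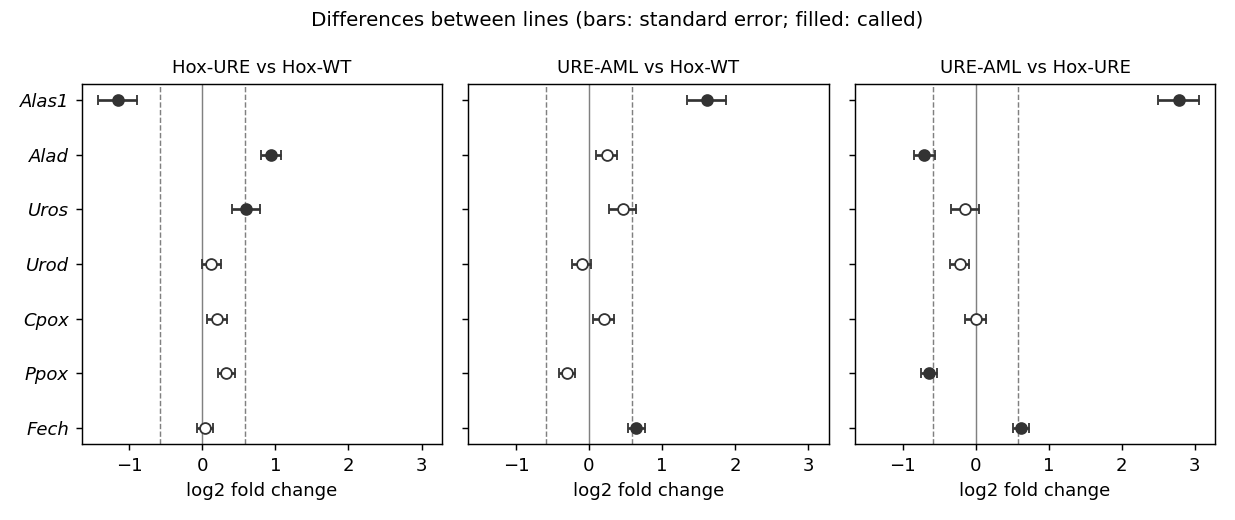
Log2 fold change (x axis) of each tested heme synthesis gene in the 3 comparisons, with the standard error as bars and dashed lines at a fold change of 1.5. Filled points were called. *Alas1* moves from -1.16 to 1.61 and 2.78, and most other genes lie within or near the dashed lines.

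Among the 7 members tested, the comparison of the Hox lines called 2 higher in Hox-URE and 1 lower. Of all genes tested there, 21.3% were higher and 15.9% lower (37.2% in all). URE-AML had 2 members above Hox-WT and 0 below it, beside 23.0% and 20.2% of all genes tested (43.2% in all). *Ppox* alone was lower there at an adjusted p under 0.05 with no fold threshold. It had 2 above and 2 below Hox-URE, beside 20.4% and 22.4% of all tested genes (42.7% in all). These shares are near the background. Libraries did not overlap for 4 of the 7 members in each comparison, beside 60.3%, 67.6% and 62.8% of all tested genes. The median log2 fold change of the members was 0.20, 0.24 and -0.14, and that of all tested genes was 0 in each comparison. The comparisons share lines and are not independent of each other.

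Summed over the 8 members, levels ranged over 303 to 322 CPM for Hox-WT and 302 to 318 CPM for Hox-URE, and were 397, 648 and 684 CPM in URE-AML libraries 1, 2 and 3. *Alas1* carried much of this. Without it the sums were 206, 198 and 193 CPM in Hox-WT, 272, 254 and 249 CPM in Hox-URE and 208, 240 and 235 CPM in URE-AML. To compare genes, CPM were divided by the length of the longest principal transcript in kb. In Hox-WT *Urod* (40.6 CPM per kb), *Alad* (36) and *Alas1* (33.6) led, and neighbours in this order overlapped. *Cpox* (12.3), *Ppox* (8.27), *Fech* (5.31) and *Uros* (3.08) followed without overlap. In Hox-URE *Alas1* (15 CPM per kb) lay below *Alad* (69) and *Urod* (44.2) and overlapped *Cpox* (14.1). In URE-AML *Alas1* led with 103 CPM per kb, and its lowest library (55.7) lay above the highest of *Alad* (44.3). *Uros* was the lowest tested member per length in each line, and the untested *Alas2* lay below it. These levels depend on the transcript chosen, since the *Fech* transcript has 6571 nt and that of *Alad* 1247 nt.

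**Figure D3:**
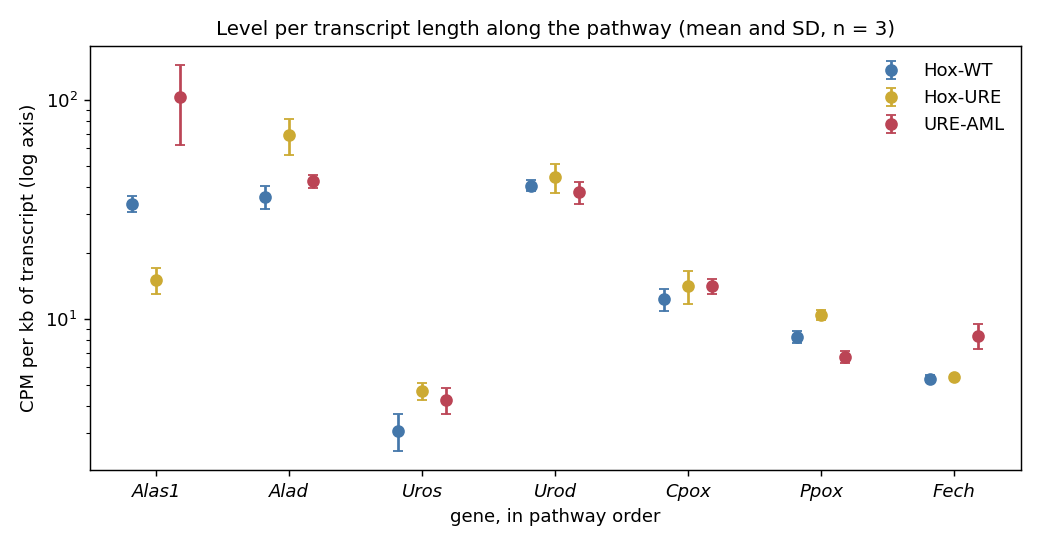
Mean CPM per kb of transcript (y axis, log scale) with SD (n = 3) for each line, with the tested genes in pathway order on the x axis. *Alas1* is level with *Cpox* in Hox-URE and above all other members in URE-AML, and *Uros* is the lowest tested member in every line, while *Alas2*, at 0 in the Hox lines, is not drawn.

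Over the 9 libraries the log2 CPM of *Alas1* and *Fech* had a Pearson's r of 0.88 and those of *Alas1* and *Ppox* of -0.89. These describe 3 lines of 3 libraries each and are not tested. Among 8612 genes with a mean of at least 10 CPM, those most like *Alas1* were *Rnf167* (r = 0.995), *Plekhg3* (0.991) and *Prkab1* (0.988). Most like *Fech* were *Mtmr3* (0.986), *Cdc14a* (0.982) and *Wdtc1* (0.978), and most like *Alad* were *Leprotl1* (0.988), *Ogg1* (0.987) and *Plpp5* (0.972).

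Of 9 tested genes that regulate ALAS or sense heme, 0 were called between the Hox lines, beside 37.2% of all genes tested (edgeR; 3 of them, *Bach1*, *Ppargc1b* and *Nrf1*, had an unadjusted p under 0.05). In URE-AML, 1 rose and 2 fell relative to Hox-WT, and 2 rose and 3 fell relative to Hox-URE (33.3% and 55.6% called, beside 43.2% and 42.7% of all genes). *Nrf1*, the gene of a nuclear respiratory factor, had the same order of lines as *Alas1*, with 51.7, 42.5 and 45.4 CPM in Hox-WT, 41.2, 30.8 and 34.2 CPM in Hox-URE and 69.2, 61.6 and 65.7 CPM in URE-AML. Its libraries did not overlap between lines. Within URE-AML it was highest in library 1, where *Alas1* was lowest, and a relation between these genes was not tested. It was called only in URE-AML against Hox-URE (log2 fold change 0.89 ± 0.13, edgeR adjusted p = 0.000171), and differed from Hox-WT by -0.39 in Hox-URE and 0.49 in URE-AML, under the fold threshold.

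*Eif2ak1*, the heme-regulated kinase that slows translation when heme is short, was higher in URE-AML at 133, 129 and 140 CPM (log2 fold change 0.81 ± 0.09 against Hox-WT, edgeR adjusted p = 3.16e-05). *Nr1d1*, a heme-binding nuclear receptor of the circadian clock, was lower there at 1.45, 1.43 and 1.37 CPM (-1.56 ± 0.21 against Hox-WT, edgeR adjusted p = 0.000122). *Ppargc1a*, a coactivator that raises *Alas1* in fasted liver, had 1 count in a single URE-AML library and 0 elsewhere.

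Of the 12 iron uptake and storage genes, all tested, 2 rose and 1 fell in Hox-URE relative to Hox-WT (25% called, below the 37.2% of all genes). In URE-AML 2 rose and 4 fell relative to Hox-WT, and 2 rose and 6 fell relative to Hox-URE (50% and 66.7% called, beside 43.2% and 42.7% of all genes). The 3 comparisons had medians of 0.35, -0.28 and -0.52 on the log2 scale. *Tfrc*, the transferrin receptor that brings in iron, had the same order as *Alas1*: 302, 285 and 275 CPM in Hox-WT, 231, 169 and 169 CPM in Hox-URE, and 429, 464 and 468 CPM in URE-AML. The lines did not overlap. It was lower in Hox-URE (log2 fold change -0.60 ± 0.12, edgeR adjusted p = 0.00248) and higher in URE-AML (0.66 ± 0.12, edgeR adjusted p = 0.0011) than in Hox-WT. The Hox-URE call was lost without Hox-WT library 1 (-0.56) or without Hox-URE library 2 or 3 (-0.53 each).

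*Aco1*, which as iron regulatory protein 1 binds *Tfrc* and ferritin messages when iron is short, had the reverse order, with means of 70.9, 120 and 44.9 CPM in Hox-WT, then Hox-URE, then URE-AML (log2 fold changes against Hox-WT 0.76 ± 0.13 and -0.66 ± 0.13). The URE-AML call was lost without URE-AML library 1 (-0.58). The ferritin light chain gene *Ftl1* was higher in Hox-URE, at 4690, 5150 and 4600 CPM, than in Hox-WT, at 2360, 1900 and 2110 CPM (log2 fold change 1.18 ± 0.15, edgeR adjusted p = 9.26e-05), and URE-AML overlapped Hox-WT. *Slc40a1*, ferroportin, the exporter of iron, had 1253, 2133 and 2300 counts in URE-AML (50.6, 101 and 98.7 CPM) and 0 to 20 counts in the Hox libraries (log2 fold change 9.26 ± 0.60 against Hox-WT, edgeR adjusted p = 5.69e-07). *Tfr2*, *Steap3* and *Ncoa4* were lower in URE-AML than in both Hox lines.

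Both heme oxygenases were called against Hox-WT. *Hmox1*, the inducible heme oxygenase, had the reverse order to *Alas1*: 15.4, 18.5 and 16.3 CPM in Hox-WT, 29.8, 25 and 23.9 CPM in Hox-URE, and 7.43, 8.23 and 8.28 CPM in URE-AML, without overlap. It was higher in Hox-URE (log2 fold change 0.65 ± 0.13, edgeR adjusted p = 0.00162) and lower in URE-AML (-1.07 ± 0.13, edgeR adjusted p = 5.83e-05) than in Hox-WT. The Hox-URE call was lost without Hox-URE library 1 (0.54), without the 3 libraries numbered 1 (0.49) and with library size as the only scaling (0.54). *Hmox2*, the constitutive form, was lower in both UREd/d lines (-1.15 ± 0.11 and -1.05 ± 0.10). Among the 9 tested genes of heme breakdown and traffic, 4 rose and 1 fell in Hox-URE relative to Hox-WT (55.6% called, beside 37.2% of all genes). In URE-AML 3 rose and 3 fell relative to Hox-WT (66.7%, beside 43.2%), and 0 rose and 2 fell relative to Hox-URE (22.2%, beside 42.7%). *Slc48a1*, which carries heme out of lysosomes, was higher in both UREd/d lines, with 414 CPM in Hox-URE and 542 CPM in URE-AML beside 202 CPM in Hox-WT (log2 fold changes 1.03 ± 0.12 and 1.42 ± 0.12). *Pgrmc1*, a heme-binding partner of *Fech*, was lower in URE-AML at 35.1 CPM, beside 123 CPM in Hox-WT (-1.81 ± 0.10).

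**Figure D4:**
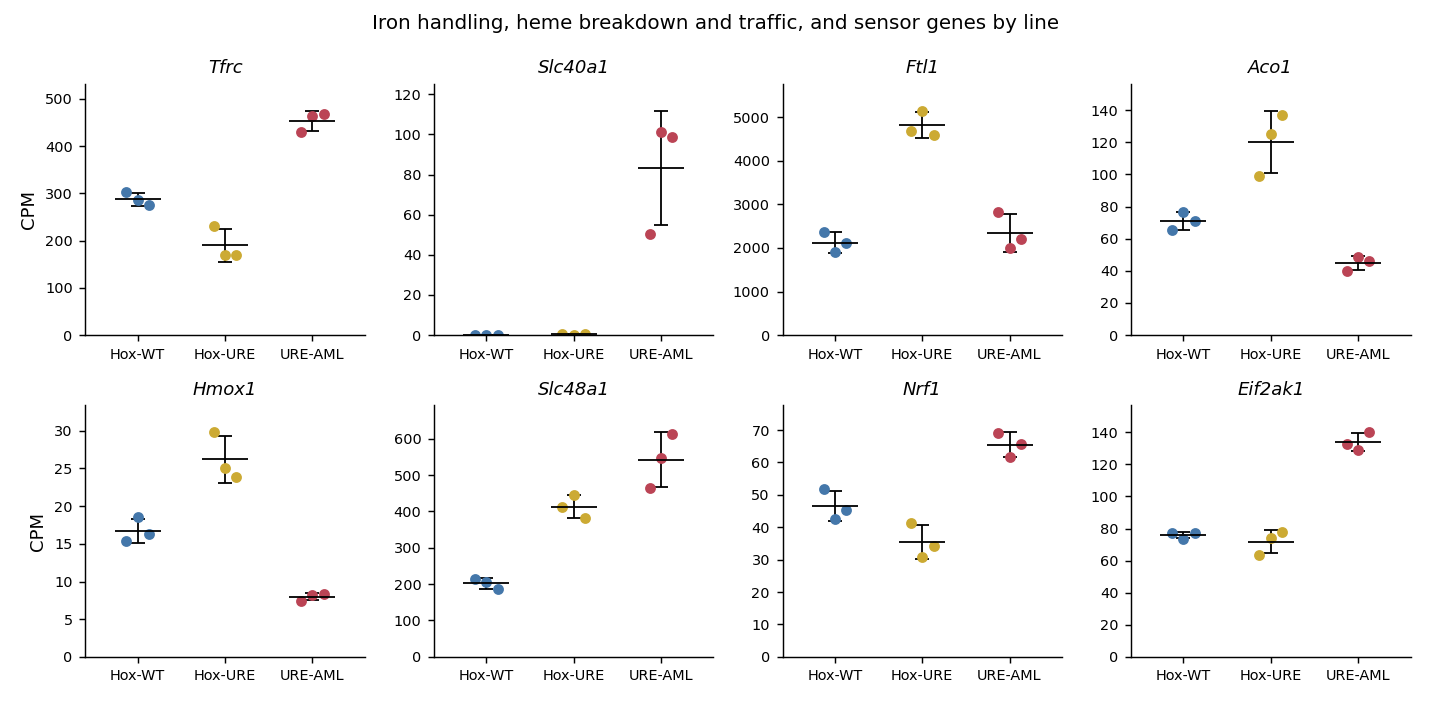
CPM (y axis, from 0) of iron handling, heme breakdown and traffic, and sensor genes in the 3 libraries of each line, with mean (line) and SD (bars). *Tfrc* and *Nrf1* are lowest in Hox-URE and highest in URE-AML, *Hmox1* and *Aco1* are highest in Hox-URE and lowest in URE-AML, and *Slc40a1* is near 0 in both Hox lines.

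Of the 18 tested genes of mitochondrial transport and cofactors, 1 rose and 2 fell in Hox-URE relative to Hox-WT (16.7% called). In URE-AML 2 rose and 3 fell relative to Hox-WT (27.8%), and 2 rose and 2 fell relative to Hox-URE (22.2%). Each share is below that of all genes tested, 37.2%, 43.2% and 42.7%. *Abcb10*, a mitochondrial transporter that aids heme synthesis, was lower in each step, at 47.4, 28.6 and 14.8 CPM in Hox-WT, then Hox-URE, then URE-AML (log2 fold changes against Hox-WT -0.73 ± 0.13 and -1.68 ± 0.13). *Suclg2*, a subunit of succinyl-CoA synthetase, was higher in URE-AML (131 CPM, log2 fold change 0.65 ± 0.09 against Hox-WT). *Suclg1* and *Sucla2*, other subunits of this enzyme, did not follow it. They differed from Hox-WT by -0.32 ± 0.08 and 0.06 ± 0.08 in URE-AML and were not called. *Shmt2*, which interconverts serine and glycine in mitochondria, was lower in URE-AML (255 CPM, -0.81 ± 0.17). *Slc25a38*, the glycine carrier, and *Slc25a37*, mitoferrin 1, were not called. *Slc25a28*, mitoferrin 2, stood at 24.9, 19.4 and 16.6 CPM, and its lower call in URE-AML against Hox-WT (-0.59 ± 0.12, edgeR adjusted p = 0.00216) lay at the fold threshold and was lost in 9 of the 20 other settings, among them without Hox-WT library 1 (-0.57) or URE-AML library 1 (-0.55).

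Of the 13 tested genes of heme-using proteins, 1 rose and 2 fell in Hox-URE relative to Hox-WT (23.1% called, beside 37.2% of all genes). In URE-AML 4 rose and 3 fell relative to Hox-WT (53.8%, beside 43.2%), and 6 rose and 1 fell relative to Hox-URE (53.8%, beside 42.7%). *Mpo*, myeloperoxidase, did not share the order of *Alas1*. It had 3290, 5950 and 5880 CPM in Hox-WT, 10.2, 2.82 and 2.14 CPM in Hox-URE and 192, 212 and 173 CPM in URE-AML (log2 fold changes against Hox-WT -9.93 ± 0.63 and -4.71 ± 0.49; edgeR adjusted p = 8.77e-07 and 1.95e-05). *Epx* and *Ptgs1*, of the same list, had means in the order of *Alas1*. *Epx* had 1, 6 and 25 counts in Hox-WT, 0 in Hox-URE and a mean of 17.5 CPM in URE-AML. *Ptgs1* had means of 113, 92.5 and 286 CPM, in the same order of lines. Both were called higher in URE-AML than in Hox-WT (log2 fold changes 5.51 ± 0.85 and 1.34 ± 0.13) but not called between the Hox lines. *Ptgs2* had the reverse order, with means of 3.11, 14.1 and 0.297 CPM. *Cyba*, a subunit of the NADPH oxidase cytochrome, and *Sdhc*, a subunit of respiratory complex II, were higher in URE-AML than in Hox-WT, by 1.44 ± 0.18 and 1.15 ± 0.11 on the log2 scale. *Cybb*, the other subunit of that cytochrome, was called lower in both UREd/d lines than in Hox-WT, with 21, 16 and 30 counts in Hox-WT, 0 in Hox-URE and 1, 1 and 2 in URE-AML.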

How the data were processed

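Stranded poly-A libraries were made from 1 µg of RNA, 3 for each of 3 mouse lines. The authors used Salmon and then tximport for gene-level sums, and the deposited values are estimated counts per gene, not scaled to library size (GRCm38 per the submitters' processing notes). Versions, strand setting and any scaling for transcript length are not given in the sources used here, so a change in transcript use could alter a count.

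Lines and library numbers came from the labels. Counts were rounded and fitted in edgeR 4.0.16 (R 4.3.3) with TMM scaling, filterByExpr (minimum count 10) and all 9 libraries in 1 quasi-likelihood model with line as the factor. A call needed an adjusted p (two-sided F test, Benjamini-Hochberg) under 0.05 and more than a 1.5-fold difference, as in the study. The study used DESeq2 for its tests, which is an alternative here (1.42.0). The standard error was obtained from the log2 fold change and F, and 95% intervals use the fit's degrees of freedom. Same-numbered libraries of the Hox lines deviated together (r 0.175 to 0.358, 3 pairs), a pairing seen in the data and not given in the labels, and the replicate block changed no enzyme's call. No pair of libraries was a duplicate (chi-square per degree of freedom 19.1 to 105). Positions and lengths came from GENCODE M21 (GRCm38), in which 54094 of 54347 identifiers were found, and upstream windows from RefSeq.

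All 8 enzymes were named with values, members of the pathway and marker lists could be named, called ones first, and the 3 genes most like a member were chosen by Pearson's r. The enzymes and lists were chosen with earlier results of these data known. A gene and a sequence covered by these rules are not reported here. Code was tested on simulated data. Alternatives were other scalings, filters and thresholds, DESeq2, 6 libraries per comparison, a replicate block, and leaving out each library. Leaving out the 3 libraries numbered 1 was chosen after seeing the data. Figures used matplotlib 3.10.9.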

Additional observations from a re-analysis of the deposited data

Results flagged for a closer look

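Genes called in opposite directions in Hox-URE and URE-AML against Hox-WT, and called between these lines, are listed with their log2 fold change in URE-AML against Hox-URE, which is the test of the difference (edgeR). Among the enzymes only *Alas1* met this, with 2.78. Among iron, heme breakdown and heme-using genes, *Tfrc* had 1.26, *Hmox1* -1.72, *Aco1* -1.42 and *Ptgs2* -5.58. Among cell type markers, *Elane* had 9.62, *Cebpe* 5.52, *Prtn3* 3.10, *Tal1* -1.47, *Gata2* -4.58, *Zfpm1* -5.08, *Gp9* -5.65, *Itga2b* -5.86 and *Cpa3* -10.92. For *Tfrc*, *Hmox1*, *Aco1*, *Zfpm1* and *Gp9*, and for none of the other genes listed here, 1 of the calls against Hox-WT was lost when certain single libraries were left out. With 3 libraries per line, no formal test for an outlying library was made.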

How the results depend on the processing

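Under 20 alternatives the calls of *Alas1* held in all 3 comparisons (log2 fold change -1.29 to -1.10, 1.39 to 1.91 and 2.55 to 3.08), and no called value changed sign. Enzymes called higher in Hox-URE against Hox-WT went from 2 to 1 with upper-quartile scaling, library size as the only scaling and glmTreat, which tests for a difference over 1.5-fold, where *Uros* was lost. With glmTreat, enzymes higher in URE-AML went from 2 to 1 against each Hox line (*Fech* lost), and those lower than in Hox-URE from 2 to 0 (*Alad* and *Ppox* lost). They went from 2 to 1 with library size as the only scaling (*Ppox* lost), which shifted the median of all genes by 0.11, and to 1 without the 3 libraries numbered 1 (*Alad* lost), where those higher than in Hox-WT went from 2 to 3 (*Uros* gained). With no filter on low counts, enzymes higher in URE-AML went from 2 to 3 against each Hox line (*Alas2* gained, on 2, 2 and 5 counts). With no fold threshold *Ppox* was gained, so enzymes below Hox-WT in URE-AML went from 0 to 1 and those above it in Hox-URE from 2 to 3.

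Leaving out 1 library at a time gave 1 to 2 enzymes higher in Hox-URE against Hox-WT and 1 to 1 lower, 1 to 2 higher and 0 to 0 lower in URE-AML against Hox-WT, and 1 to 2 higher and 1 to 2 lower in URE-AML against Hox-URE. All genes called were 4687 to 5235, 5539 to 5945 and 5478 to 5873. With at least 10 counts in every library, which left fewer genes to test, they were 3200, 3602 and 3553, beside 4873, 5648 and 5592.

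In the comparisons with URE-AML not every pair of same-numbered libraries had deviations with r over 0.1 (0.04 to 0.155 and 0.067 to 0.138), so there the numbers were not taken as pairs, although 9 of 9 libraries correlated best with their own number. With the replicate block, 2 enzymes were higher and 1 lower, 2 higher and 0 lower, and 2 higher and 2 lower in the 3 comparisons, as without it, and 4908, 5678 and 5584 genes were called. Of 1320 counts for the other lists under alternatives, 100 moved by over 1.5 times.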
